A study of Homo sapiens with 10 samples.

Results

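NME1 and NME2 are neighbouring genes on human chromosome 17 that encode nucleoside diphosphate kinases, and the binding of MYC to them was described in 3 lists of chromatin peaks. They are 2 of 20050 protein-coding genes in the gene table used here, and they were chosen by the fold of their peaks in the wild-type MYC list, which are among its highest, so their values below are a description and carry no test. Every peak inside the genes or within 20 kb of them was taken. The 3A list held 2 such peaks, the 7A list held 0 and the wild-type list held 2. Over all protein-coding genes, 7.21% had a 3A summit inside them or within 20 kb, 0.424% a 7A summit and 31.6% a wild-type summit, and nothing is read from this, since the genes were chosen for their peaks.

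Nucleoside diphosphate kinases move the last phosphate of a nucleoside triphosphate, usually ATP, onto other nucleoside diphosphates, and so supply the GTP, CTP, UTP and deoxynucleotides that cells use for RNA, DNA and protein synthesis. NME1 (nm23-H1) and NME2 (nm23-H2) make the closely related A and B subunits, which assemble into mixed hexamers. NME1 is known as a suppressor of metastasis, and NME2 has also been studied under the name PuF as a protein that binds DNA at the MYC gene. MYC pairs with MAX to bind E-boxes, whose canonical form is CACGTG, and NME1 and NME2 have long been described as genes that MYC activates.

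The cells were derived from U2OS, an osteosarcoma line of human origin, and lacked their own MYC through a knockout. They carried a FLAG-tagged MYC under doxycycline control, which was the mutant 3A, the mutant 7A or the wild type (WT). The labels do not say which residues the mutants change. Induction was with doxycycline at 1 µg/mL over 24 h, mouse NIH3T3 cells were added at 10% as a reference genome, and chromatin was recovered with an antibody to FLAG. Each induced protein (3A, 7A and WT) has 2 immunoprecipitated libraries. WT also has 2 uninduced immunoprecipitates, 1 induced input and 1 uninduced input, and these 4 libraries had no peak list used here. There are 845 peaks for 3A, 64 for 7A and 4749 for WT. With 1 list for each protein the spread between its libraries cannot be seen, and the proteins were not tested against each other. Read totals were not used here. Fold enrichment below is the authors' own value for each peak, the pileup of DNA at the summit over the local background, and it was ranked only within a list. The median peak had a fold of 3.41 for 3A, 3.39 for 7A and 5.14 for WT. Coordinates are hg38 and count from 1.

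NME1 spans chr17:51153559-51162168 on the plus strand, with 1 annotated start at its first base. NME2 spans chr17:51165536-51171744 on the same strand, 3367 bp beyond the end of NME1. The RefSeq table gives NME2 3 starts, the others lying 875 bp and 965 bp after the first. A readthrough gene, NME1-NME2, uses the NME1 start and ends with NME2. The next protein-coding gene, MBTD1, ends 5681 bp beyond NME2 and is transcribed towards it.

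Bases around the starts are shown so that the peaks can be set beside the sequence. The first NME2 window holds no base of a 3A or WT peak, and the window of the middle NME2 start is not shown. Each window holds 250 bases before a start and 50 bases from the start on (RefSeq, GRCh38.p14, plus strand for NME1 and NME2 and minus strand for NME6). Capitals mark every CANNTG, the general form of the E-box. The windows are chr17:51153309-51153608 for NME1, chr17:51165286-51165585 for the first start of NME2, chr17:51166251-51166550 for the last start of NME2, and chr3:48301318-48301617 for NME6, the other family member with a peak at its start.
NME1: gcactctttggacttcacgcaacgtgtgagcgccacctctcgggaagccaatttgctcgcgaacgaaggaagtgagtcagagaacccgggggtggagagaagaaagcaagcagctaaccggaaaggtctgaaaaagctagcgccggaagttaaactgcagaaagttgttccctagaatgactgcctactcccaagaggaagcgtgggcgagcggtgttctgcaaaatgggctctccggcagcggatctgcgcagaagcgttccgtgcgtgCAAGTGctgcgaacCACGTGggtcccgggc
NME2 first start: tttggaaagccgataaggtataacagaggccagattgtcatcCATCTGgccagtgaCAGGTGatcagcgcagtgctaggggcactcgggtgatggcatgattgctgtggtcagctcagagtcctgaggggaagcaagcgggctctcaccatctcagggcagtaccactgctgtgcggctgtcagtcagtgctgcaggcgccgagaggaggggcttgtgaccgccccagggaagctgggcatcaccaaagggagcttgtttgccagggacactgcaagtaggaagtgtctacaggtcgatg
NME2 last start: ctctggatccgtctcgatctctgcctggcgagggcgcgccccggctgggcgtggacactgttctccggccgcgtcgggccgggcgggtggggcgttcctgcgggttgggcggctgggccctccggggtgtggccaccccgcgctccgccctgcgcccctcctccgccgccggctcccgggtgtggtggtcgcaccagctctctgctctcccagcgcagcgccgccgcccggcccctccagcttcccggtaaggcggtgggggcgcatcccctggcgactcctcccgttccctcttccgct
NME6: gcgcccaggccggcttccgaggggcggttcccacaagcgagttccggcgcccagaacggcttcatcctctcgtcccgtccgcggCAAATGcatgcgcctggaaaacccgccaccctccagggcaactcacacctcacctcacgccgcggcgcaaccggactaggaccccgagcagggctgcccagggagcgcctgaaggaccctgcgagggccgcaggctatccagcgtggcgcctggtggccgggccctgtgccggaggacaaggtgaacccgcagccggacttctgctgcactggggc

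In the NME1 window CACGTG occurs 1 time, starting at base 35 counted from the transcription start as base 1. It lies 47 bp from the 3A summit and 41 bp from the WT summit. The other CANNTG in this window, CAAGTG, starts at base 21. None of the 3 NME2 windows holds CACGTG. The last NME2 window holds no CANNTG, although 277 of its 300 bases lie inside the WT peak. The WT summit at NME2 lies 188 bp beyond the end of that window, and the bases under it were not analysed here. The NME6 window lacks the canonical form and holds 1 other E-box form, written CAAATG. Over the whole family, 1 of 11 windows holds CACGTG, that of NME1. Among all 34943 promoter windows 7.23% hold CACGTG, and among the 1575 windows with a WT summit inside them 27.3% do. The corresponding shares for CANNTG are 68.7% and 64.3%, and CACGTG is itself a CANNTG. A further sequence that MYC and MAX bind, CACGCG, searched on both strands, is absent from the NME1, NME2 and NME6 windows and present in 11.4% of all windows and 38.2% of those with a WT summit. These are matches of letters and were not tested as binding sites.

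At the NME1 start both lists with a peak placed its summit within a few bases of the annotated start. The 3A peak, chr17:51153332-51154029, was 698 bp wide with its summit at position 51153546, which is 13 bp before the start. The WT peak, chr17:51153209-51154383, was 1175 bp wide with its summit at 51153552, which is 7 bp before the start. The 3A peak lay wholly inside the WT peak and covered 59.4% of it, and the summits were 6 bp apart. Of all 3A peaks 86.7% overlapped a WT peak. Over the 733 3A peaks that overlap a WT peak, 78.9% lay wholly inside it. The median distance between their summits was 49 bp, and 8.87% of them had summits at most 6 bp apart. Within 10 bp of a protein-coding start lay 3.79% of all 3A summits and 2.02% of all WT summits. The 3A summit at NME1, at 13 bp, is just outside this limit, and the WT summit is inside it.

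The NME1 peak was among the highest of each list. In the 3A list its fold was 6.27, which ranked 13 of 845. In the WT list its fold was 28.9, which ranked 3 of 4749, or 5.61 times that list's median. The WT peaks on either side of it in that order lay away from protein-coding gene ends, 40210 bp from FOXK1 (fold 29.6) and 19930 bp from TCF3 (fold 28.4). The −log10 q was 39.4 in the 3A list and 418 in the WT list.

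The fold and p of a peak together give back the whole pileup at its summit and the local background. At the NME1 summit the 3A pileup was 95 (exact Poisson 95% interval 76.9 to 116) over a background of 14.3, and the WT pileup was 393 (355 to 434) over a background of 12.7. The backgrounds at NME1 lay below the median of their list, which was 19.7 in 3A and 13 in WT. The 3A pileup ranked 122 in its list and the WT pileup ranked 14. The intervals cover counting error only, and pileups were not scaled to the mouse reads, so levels of the proteins were not compared.

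NME2 carried the other peak of the region in both lists. The 3A peak, chr17:51166432-51167134, was 703 bp wide with its summit at 51166776, and the WT peak, chr17:51166274-51167388, was 1115 bp wide with its summit at 51166738. These summits are 1240 bp (3A) and 1202 bp (WT) inside the gene span, which puts them outside a window of 1 kb around the gene's ends. Measured from the last annotated start they were 275 bp (3A) and 237 bp (WT) downstream. The summit therefore lay beyond all annotated NME2 starts and nearest to the last, and the WT peak did not reach the window of the first start. Of all summits, 53.6% in the 3A list and 42.0% in the WT list lay within 300 bp of a protein-coding start. The 3A peak again lay wholly inside the WT peak, as 78.9% of the 733 overlapping 3A peaks did, and covered 63.0% of it. The summits were 38 bp apart, and 43.9% of those 733 peaks had summits at most 38 bp apart. Whether the summit falls in an exon or an intron was not analysed here.

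The NME2 peak had a fold of 4.37 in the 3A list, rank 130 of 845, and a fold of 22.8 in the WT list, rank 10 of 4749. Its pileup was 71 (exact Poisson 95% interval 55.5 to 89.6) over a background of 15.5 in 3A, and 325 (291 to 362) over 13.3 in WT. The WT peaks just above and just below it in fold were 399 bp from SLC33A2 (23.5) and inside PEMT (22.1), a gene of phosphatidylcholine synthesis. Within each list NME1 was the higher of the pair. Its fold was 1.43 times that of NME2 in the 3A list and 1.27 times in the WT list. The Poisson intervals of their pileups overlap in both lists, which does not show whether the pileups differ. The difference was not tested.

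**Figure D1:**
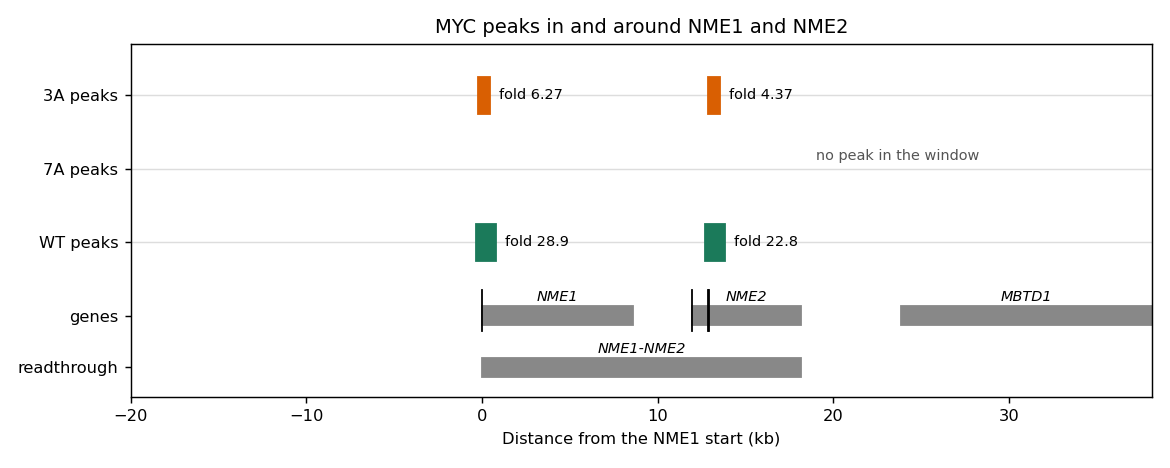
Peaks of the 3A, 7A and WT lists (boxes, drawn to scale with the authors' fold beside them) in the window from 20 kb before NME1 to 20 kb after NME2, against the distance from the NME1 start in kb; grey bars are genes and vertical lines the annotated starts of NME1 and NME2. The 3A and WT lists each have 2 peaks, at the NME1 start and inside NME2, and the 7A list has 0.

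**Figure D2:**
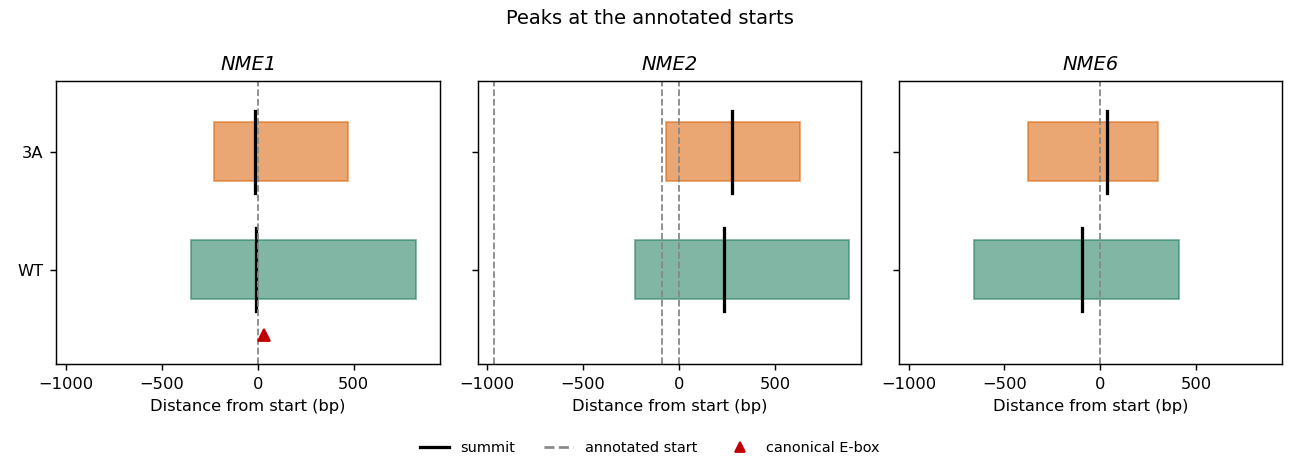
Peak intervals (boxes) and summits (black lines) of 3A and WT at NME1, NME2 and NME6, against the distance in bp from the annotated start, for NME2 from its last start; dashed lines are annotated starts and the triangle is the canonical E-box. The NME1 summits lie 13 bp (3A) and 7 bp (WT) before the start, and the NME2 summits 275 bp (3A) and 237 bp (WT) after it.

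The summits at NME1 and NME2 were 13230 bp apart in the 3A list and 13186 bp in the WT list, with no other peak between them. There were 514 pairs of neighbouring WT peaks with summits within 20 kb of each other. Among them the NME1 and NME2 pair had the highest lower fold (22.8) and was the 1 pair with both folds above 20. This lead follows from the choice of NME1 and NME2 by their WT folds, and nothing is read from it. The median lower fold over these pairs was 4.26. The pairs that followed it were PPRC1 and NOLC1 (lower fold 13.3), RPL23A and TLCD1 (11.1), LDB1 and PPRC1 (10.9), and a pair inside the folate carrier gene SLC19A1 (9.92). With the limit of 10 kb set in the design the NME pair is too far apart to count, and RPL23A and TLCD1 lead with 11.1.

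The 3A counterparts at NME1 and NME2 can be set beside the whole WT list, of which 15.1% had a 3A peak. Of the 10 peaks at the top of the WT list by fold, 9 (90.0%) had a 3A counterpart, and of the top 100 the share was 59.0%. All these shares include the 2 peaks at NME1 and NME2 themselves. The ranks of those 9 counterparts within the 3A list ran from 2 to 480, with NME1 in their middle at 13 and 4 ahead of it, and 5 ahead of NME2. PPRC1, which codes for a coactivator and has the highest WT fold (30.5), ranked 225 in 3A, and NCL, the nucleolin gene, with a WT fold of 27.0, ranked 480, these examples being chosen after their values were seen. The 4 ahead of NME1 in 3A were the peaks nearest to FOXK1 (rank 2), MYO1G (3), ING5 (5) and SLC33A2 (7). High rank in the WT list thus came with very different ranks in the 3A list. NME1 and NME2 were chosen for their high WT folds, so nothing is read from their place in that list.

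Likeness was measured as the distance between 2 peaks in their fold percentiles in the WT and 3A lists, over the 673 other WT peaks that also had a 3A and no 7A counterpart. The peak closest to NME1 was in NPM1, which codes for nucleophosmin, a nucleolar chaperone, with folds of 6.20 in 3A (rank 14) and 20.1 in WT (rank 18). LOC124904958, KLF16, SLC33A2 and DHX33 followed, within 0.794 percentile points. The peaks closest to NME2 were 31482 bp from TOMM7 (folds of 4.33 in 3A and 16.7 in WT) and at FERMT1, SYNCRIP, RANBP1 and NOB1, within 2.82 percentile points. These peaks were ordered by the same folds that define the likeness, and nothing beyond the ranks was compared.

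**Figure D3:**
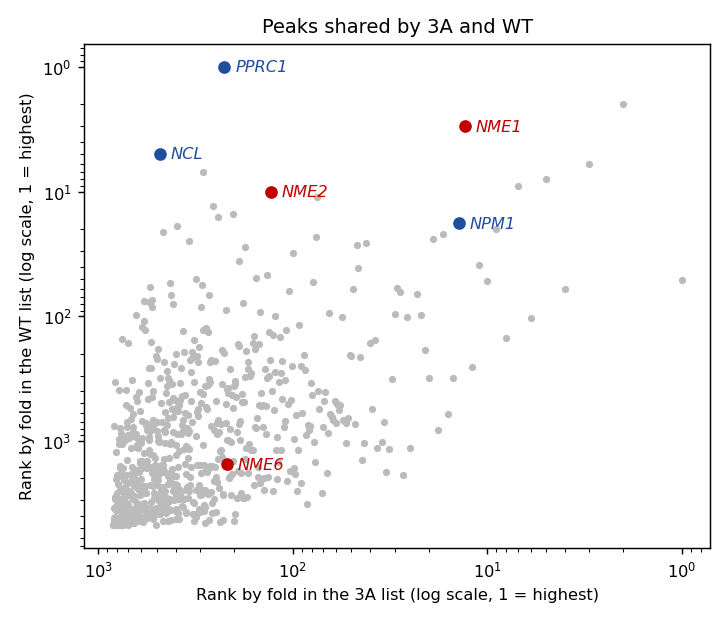
Rank by fold in the 3A list (horizontal, log scale) against rank by fold in the WT list (vertical, log scale) for WT peaks with a 3A counterpart, rank 1 being at the right and at the top; each point is a peak. NME1 lies at 13 in 3A and 3 in WT, NME2 at 130 and 10, and NME6 at 219 and 1539.

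7A had no peak in the region. On the same chromosome the nearest 7A peaks were 6.72 Mb beyond NME1, inside CUEDC1, and 8.16 Mb before it, at RPL27. The 7A list is short, and 1.03% of all WT peaks had a 7A counterpart, so the absence at NME1 and NME2 is what most WT peaks show. The count with a 7A peak was 0 among the top 10 WT peaks. The lowest pileup among called 7A peaks was 39, and the 7A pileup at NME1 and NME2 was not analysed here, so binding too weak to be called cannot be told from no binding.

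Outside the 20 kb window the locus had no peak for a long way. The nearest WT peak upstream was at LUC7L3, 434 kb before NME1 (fold 5.54), and the nearest downstream was 92.6 kb after the NME2 summit, inside MBTD1 (fold 5.02). The nearest 3A peaks were 943 kb before NME1 (fold 4.23) and 6.68 Mb after NME2, at MRPS23 (fold 2.28). Copies of NME1 and NME2 elsewhere in the genome could share reads with them. The pseudogenes NME1P1, NME2P1, NME2P2 and NME2P3 had no peak closer than 87.4 kb in the 3A list and 51.6 kb in the WT list, both at NME2P1. These distances cannot show whether reads were shared, since reads were not examined, and this was not tested.

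The other 7 members of the family were looked up in the same way. By the rule of a summit within 1 kb of either end of the gene, 2 of 9 family genes were bound in 3A, 0 in 7A and 2 in WT, the bound genes being NME1 and NME6 in both lists. Over all protein-coding genes 3.50% were bound by this rule in 3A, 0.130% in 7A and 16.7% in WT. Measured from annotated starts instead, a rule added after the values were seen, NME1, NME2 and NME6 were bound in 3A and in WT and 0 in 7A. Over all genes with an annotated start the shares were 3.87% in 3A, 0.126% in 7A and 18.8% in WT. With 9 genes, of which 2 were picked for their peaks, these counts are not a result about the family.

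NME6 codes for a mitochondrial member of the family. Its 3A summit lay 35 bp after the start with a fold of 3.97 (rank 219 of 845) and its WT summit 97 bp before the start with a fold of 6.13 (rank 1539 of 4749). The summits were 132 bp apart, and the 3A peak lay wholly inside the WT peak (chr3:48300958-48302024). The 3A pileup was 69 over a background of 16.6 and the WT pileup 100 over 15.5. NME6 ranked below NME1 and NME2 in both lists. Nothing is read from this, since NME1 and NME2 were chosen for their high WT folds.

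NME3, which codes for a kinase of the mitochondrial outer membrane, had peaks nearby that lay at another gene. The 3A summit was 1680 bp and the WT summit 1561 bp before the NME3 start, with folds of 2.69 and 7.73, but they were 89 bp (3A) and 30 bp (WT) from the start of MRPS34, a mitochondrial ribosomal protein gene. A WT peak 18.7 kb before NME9 (fold 5.54) lay 9 bp from the start of MRAS. NME4, a mitochondrial kinase gene, NME5 and NME8, which act in cilia and sperm, and NME7, a centrosomal member, had no peak of any list inside them or within 20 kb. Their nearest WT summits were 162 kb (NME4), 384 kb (NME5), 118 kb (NME7) and 72.4 kb (NME8) from their starts.

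The base composition of the windows also differed within the family. GC content ran from 46.0% at NME5 to 76.7% at the last NME2 start, with 57.3% at NME1 and 70.7% at NME6. The median was 58.7% over all promoter windows and 68.7% over those with a WT summit, so the NME1 window is less GC-rich than most windows that WT bound (quartiles 63.5 to 73.7%). It held 23 CpG dinucleotides, against 37 at the last NME2 start and a median of 32 in windows with a WT summit.

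NME1 and NME2 take the products of nucleotide synthesis, and the other genes of these pathways were counted from 5 lists of 45 genes in all. A summit within 1 kb of an end was found for 3 genes (6.67%) in 3A, 0 in 7A and 23 (51.1%) in WT. Of all protein-coding genes 3.50% (3A), 0.130% (7A) and 16.7% (WT) had one by the same rule. The lists were chosen with earlier results of these data known, so these shares are a description and were not tested. The median WT fold of these 23 genes was 6.19 and the range was 2.98 to 17.5, taking the highest peak near the ends of each gene. The median of 5.14 for all WT peaks counts every peak, also those far from genes, so these medians are not of like sets. None of the 23 genes reached the fold of NME2. Nothing is read from this, since NME1 and NME2 were chosen for their high WT folds. NME2 itself has no summit within 1 kb of an end.

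The counts for the single lists are small, and at the share of 3.50% over all genes a list of this size with 0 genes bound in 3A is near the background. Pyrimidine synthesis genes were bound at 0 of 8 in 3A and 7 of 8 in WT, led by CAD, which carries the first enzymes of the pathway (fold 17.5, rank 37), and CTPS1, which makes CTP (9.81). Purine synthesis genes were bound at 2 of 11 in 3A and 6 of 11 in WT. PPAT, the gene of the committed step, had folds of 3.63 in 3A and 11.2 in WT. These summits, 822 bp (3A) and 810 bp (WT) from the PPAT start, were nearer to a start of PAICS, another purine synthesis gene, at 177 bp (3A) and 165 bp (WT), and the peaks cannot be given to PPAT alone. Counted by annotated starts, which the table gives for 9 of the 11 genes, PAICS is among the bound genes, which number 3 in 3A and 7 in WT and are not all the same genes as by gene ends. ATIC had folds of 3.42 in 3A and 8.68 in WT, and ADSL had no 3A summit within 1 kb and a WT fold of 9.01. Nucleoside salvage genes were bound at 1 of 10 in 3A and 6 of 10 in WT, the latter led by UCK2 (11.0) and APRT (7.73). The gene bound in 3A was the mitochondrial thymidine kinase gene TK2 (fold 2.95, rank 607), which had no WT summit within 1 kb of an end. Nucleoside monophosphate kinases, which make the diphosphates that NME1 and NME2 use, were bound at 0 of 13 in 3A and 3 of 13 in WT, among them AK7 (6.57) and DTYMK (5.84). Of the ribonucleotide reductase genes 0 of 3 in 3A and 1 of 3 in WT were bound, this being RRM2, whose WT summit 48 bp from the start had a fold of 3.74 (rank 4036). A higher pair of peaks lay outside the 1 kb limit at RRM2, with a 3A summit 1888 bp from the start (fold 3.28, rank 483) and a WT summit 1893 bp from it (fold 10.2, rank 312).

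**Figure D4:**
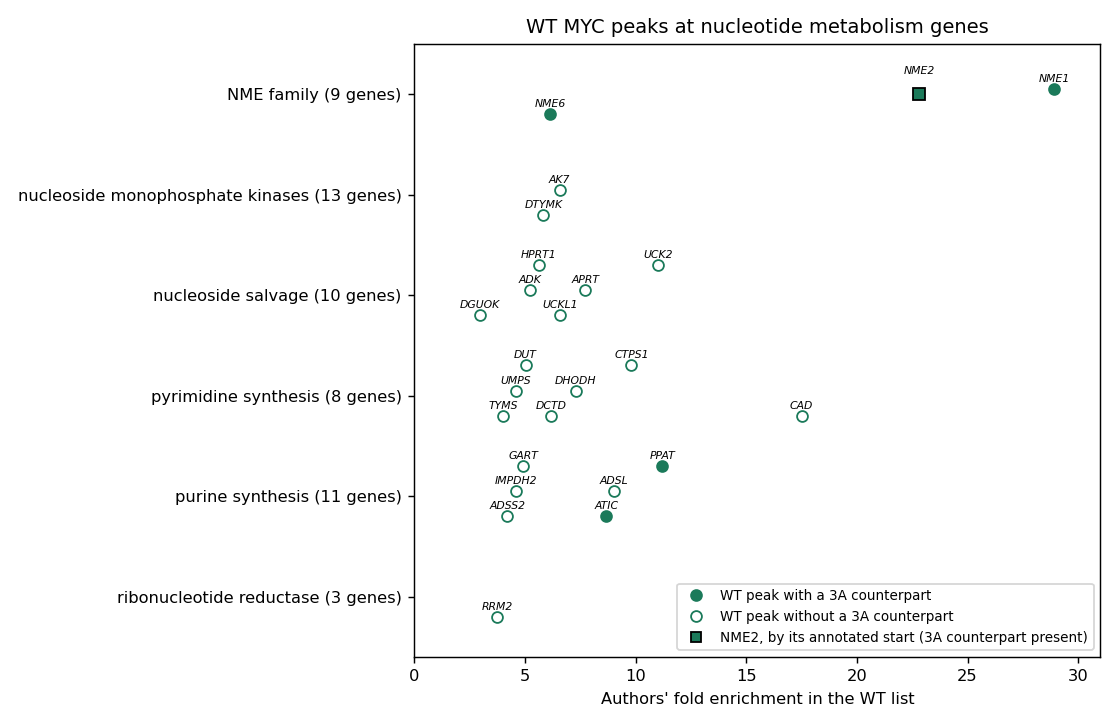
Authors' fold enrichment in the WT list (horizontal) for genes of the NME family and of 5 nucleotide pathway lists with a WT summit within 1 kb of a gene end, each point being a gene and 1 gene of the counts not being shown; filled points have a 3A counterpart, and the square is NME2, placed by its annotated start. NME1 (28.9) and NME2 (22.8), chosen for their high WT folds, lie above CAD (17.5), the highest of the other pathway genes.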

How the data were processed

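MYC carrying a FLAG tag was mapped by ChIP-seq with added mouse chromatin in 10 libraries of 6 groups. Per the submitters' processing notes, cutadapt, Bowtie2, SAMtools, Picard and MACS2 were used, and hg19, mm10 and hg38 are named without roles. The authors deposited 1 narrowPeak list per induced protein, which gives each peak's fold (a ratio), −log10 p-value, −log10 q-value and a score that was not used. How libraries, controls and mouse reads were combined is not given in the sources used here.

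WT summits lay within 1 kb of a GRCh38.p14 start for 56.8% of peaks, against 2.04 to 2.48% after shifts of 100 or 500 kb, so hg38 was taken. Names and starts came from RefSeq tables, and 4 of 54 listed genes had no start there. A summit is column 2 plus column 10, plus 1 to count from 1. A counterpart overlaps by at least 1 bp. Pileup and background were solved from fold = (pileup + 1)/(background + 1) and a Poisson tail, within 0.02 of a step for 845 of 845 3A, 63 of 64 7A and 4749 of 4749 WT peaks, and the method was tested on simulated data. Members and lists were chosen with earlier results of these data known. Named items are family members, neighbours within 20 kb, the 2 highest bound genes of each list, fold neighbours, the 5 most alike peaks, the 5 leading pairs and pathway genes behind a count of 5 or fewer, of which 1 gene is not reported here. Distances to annotated starts, pileup ranks and CACGCG were added after the data were seen. Python 3.11.15, numpy 2.4.6, pandas 2.3.3, scipy 1.17.1, statsmodels 0.14.6 and matplotlib 3.10.9 were used.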

Additional observations from a re-analysis of the deposited data

How the results depend on the processing

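Of 81 alternatives to 16 results, 64 left the value within the limit set for a change. The count of peaks in the region was 2 in 3A, 0 in 7A and 2 in WT with windows of 10 or 50 kb, with −log10 q of at least 5 or 10 and with peaks within 1 kb merged. Both 3A counterparts were present with 50% overlap of both peaks and with summits within 100 bp. Ranks depended on the measure. By −log10 q the NME1 peak ranked 25 in 3A and 9 in WT, and the NME2 peak 158 in 3A and 16 in WT. By width they ranked 226 and 219 in 3A, and 894 and 1053 in WT. By recovered pileup, chosen after the data were seen, NME1 ranked 122 in 3A and 14 in WT, and NME2 ranked 357 in 3A and 28 in WT. Family genes with a summit were 4 in 3A and 4 in WT with a window of 5 kb. The share over all genes was not computed for that window. Within 20 kb of the span they were 4 in 3A and 5 in WT, against 7.21% (3A) and 31.6% (WT) of all protein-coding genes. NME2 and NME3 were added in both lists, and NME9 in WT by the wider rule. The peaks near NME3 and NME9 lay at MRPS34 and MRAS. NME1 and NME2 were chosen for their peaks, so these counts are not a result about the family. The leading pair of WT peaks had a lower fold of 9.92 within 5 kb and 22.8 within 20 kb. No paired analysis was possible because each protein has 1 peak list, and for the same reason no replicate could be left out. Read depth was not used here, so what it limits in the 7A list is not known.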

Other observations

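Downstream of NME2, 2 WT peaks lay at the far end of MBTD1, a chromatin reader gene, and at UTP18, which codes for a factor of the small ribosomal subunit processome and is transcribed away from it. The peak at MBTD1 was 697 bp from that gene's annotated start with a fold of 5.02 (rank 2503 of 4749). The peak at UTP18 was 16 bp from the UTP18 start with a fold of 4.98 (rank 2541). Its summit also lies inside the span of MBTD1, which overlaps that of UTP18. Neither peak had a 3A counterpart, which is what most WT peaks show, since 15.1% of all WT peaks had one. NME1 and NME2, chosen for their high WT folds, each had one. The summits lay 92.6 kb (MBTD1) and 93.8 kb (UTP18) beyond the WT summit at NME2.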
